A study of Mus musculus with 7 samples.

Results

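Autophagy delivers cytoplasm to lysosomes: a double membrane forms around cargo, closes as an autophagosome and fuses with a lysosome, where acid hydrolases digest the contents. Formation needs a kinase complex (ULK), a lipid kinase complex, proteins that bring membrane, and conjugation enzymes that attach ATG8 proteins to the membrane; the lysosome is kept acidic by the vacuolar proton pump. In heart muscle this route clears worn organelles, breaks down glycogen and supplies nutrients around birth, and loss of the lysosomal protein LAMP2 or of the glycogen enzyme GAA causes cardiomyopathy. The 47 genes described here were taken by symbol from the 23337 genes of the count table, as 26 genes of autophagosome formation, 2 cargo receptors, 2 transcription factors, 5 lysosomal membrane or lipid egress genes, 5 hydrolases and 7 subunits of the proton pump. 46 were found under their own symbol and Atg101 under an older one, and all 47 passed the filter on low counts.

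RNA was sequenced from sorted cardiomyocytes of mice at postnatal day 6 (P6, 4 libraries) and day 30 (P30, 3 libraries). All mice carried the genotype Rosa-Tom/Cas9, given jointly with no statement of which allele a mouse had, and all received the virus AAV9-cTNT-Cre, in which the cardiac troponin T promoter drives Cre, on day 1. Time since the virus therefore rose with age and cannot be told apart from it, and there was no group without virus. The treatment text names a different collection day; titles, ages and design text give P6 and P30. Nothing states whether libraries came from separate animals or pools, so the p-values reflect only how these libraries vary among themselves.

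Libraries carry the names of their columns (P6a, P6b, P6c, P6d; P30a, P30b, P30c) and held 10594932 to 51427646 counts. At these depths 3 counts were worth 0.0553 to 0.271 CPM, below the lowest value of any member in any library (1.33 CPM); CPM here is the count scaled to a common library size after TMM scaling. Cardiomyocyte markers were abundant: the 9 markers summed to 96050 to 115125 CPM at P6 and 146840 to 155014 CPM at P30. Macrophage markers (13 genes) summed to 3.71 to 6.67 CPM at P6 and 17.2 to 51.6 CPM at P30, and endothelial markers (7 genes) to 105 to 219 CPM and 292 to 599.6 CPM, both highest in P30b. Fibroblast markers summed to 158 to 391 CPM at P6 and 137 to 313 CPM at P30, and immediate early genes to 588 to 1189 CPM and 2331 to 3907 CPM. Smooth muscle and pericyte markers summed to 942 to 2128 CPM at P6 and 925 to 1765 CPM at P30. Most of this was Acta2 (means of 1456 and 1186 CPM), which was not called. Of these 6 markers 4 were higher at P30 in the edgeR test described below (2 without P30a), against 26.3% of all tested genes. The median log2 fold change of the 6 was 1.34. In bulk RNA fewer cells of a type and less RNA per cell cannot be told apart.

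Many lysosomal genes are targets of the transcription factors TFEB and TFE3, which bind promoters at a short palindrome built around CACGTG. Promoter sequences (250 bases before to 50 after the start, RefSeq, GRCm38.p6) were matched for 38 of the 47 members. CACGTG, which reads the same on both strands, was present in 11 of these 38 genes (28.9%), against 11.9% of 8970 tested genes with a promoter. It was found in 3 of 4 hydrolases, 2 of 5 pump subunits, 2 of 4 lysosomal membrane genes, 3 of 7 conjugation genes and the 1 nucleation gene with a promoter, and in none of 4 initiation, 5 membrane supply, 4 ATG8, 2 receptor and 2 transcription factor genes. The longer TCACGTG, which contains CACGTG and was searched on both strands, was in 9 of the 38 (23.7%) against 7.02%, and CACGTG flanked by GT before and AC after in 0 of 38 against 0.836%. The 150 bases before the RefSeq start of 6 members are shown because they hold the motif (in capitals) in genes that later prove higher, not called or lower at P30, each written 5′ to 3′ on the gene's own strand:

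Ctsd (hydrolase, chr7:142387828-142387977, minus strand): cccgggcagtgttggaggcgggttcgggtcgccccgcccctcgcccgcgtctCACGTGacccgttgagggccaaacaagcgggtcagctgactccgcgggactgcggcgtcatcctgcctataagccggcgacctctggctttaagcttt
Gaa (hydrolase, chr11:119267813-119267962, plus strand): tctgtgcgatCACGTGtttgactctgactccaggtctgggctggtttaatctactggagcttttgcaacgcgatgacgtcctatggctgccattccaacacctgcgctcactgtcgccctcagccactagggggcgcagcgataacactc
Lamp1 (lysosomal membrane, chr8:13159011-13159160, plus strand): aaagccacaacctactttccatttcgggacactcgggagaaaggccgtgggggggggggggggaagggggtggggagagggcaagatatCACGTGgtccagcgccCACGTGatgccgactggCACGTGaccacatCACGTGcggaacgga
Mcoln1 (lysosomal membrane, chr8:3500369-3500518, plus strand): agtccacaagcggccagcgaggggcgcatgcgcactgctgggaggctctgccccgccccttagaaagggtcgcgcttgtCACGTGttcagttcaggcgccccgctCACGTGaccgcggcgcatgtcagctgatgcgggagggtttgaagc
Atp6v1a (proton pump, chr16:44139260-44139409, minus strand): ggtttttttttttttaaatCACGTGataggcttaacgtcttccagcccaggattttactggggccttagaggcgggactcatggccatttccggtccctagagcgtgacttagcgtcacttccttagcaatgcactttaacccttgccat
Atg3 (conjugation, chr16:45158679-45158828, plus strand): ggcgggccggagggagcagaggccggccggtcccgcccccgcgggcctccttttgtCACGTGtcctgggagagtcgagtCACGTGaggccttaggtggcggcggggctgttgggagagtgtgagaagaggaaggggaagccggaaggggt

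Cathepsin D (Ctsd) had the motif 98 bases before the start and again beyond the printed stretch. Lamp1 had it 4 times, at 61, 45, 28 and 15 bases, and the calcium channel gene Mcoln1 at 71 and 45 bases. The motif was present in 4 of 16 members that were higher at P30, 3 of 7 that were lower and 4 of 15 that did not pass the test. Starts here are those of RefSeq: in GENCODE the gene begins further upstream for all of the 6 but Lamp1, so that the stretches of Ctsd and Atp6v1a lie wholly and those of Gaa, Mcoln1 and Atg3 partly within the annotated gene. A match describes letters in a window and no binding was measured.

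The comparison asked how the transcripts of autophagosome formation and of the lysosome differed between P6 and P30. At P30, 20 of the 47 members were higher and 8 were lower in edgeR's quasi-likelihood test, at a p under 0.05 after Benjamini-Hochberg adjustment over 12561 genes. Of all tested genes 54.1% were called, 26.3% as higher and 27.8% as lower. Most differences were small: 1 gene rose and 1 fell by at least 2-fold, against 10.6% and 12.4% of all tested genes. The CPM of 23 members was higher in every P30 library than in any P6 library, and that of 9 was lower, against 27.8% and 28.8% of tested genes. The median log2 fold change (P30 over P6) was 0.20 for the members and -0.02 for all tested genes. Scaling by library totals, without TMM, left 16 higher and 14 lower, against 19.2% and 37.1% of tested genes, and the median of all genes moved to -0.20. With a trend with transcript length removed from each library 23 were higher and 8 lower, against 26.8% and 28.1%.

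**Figure D1:**
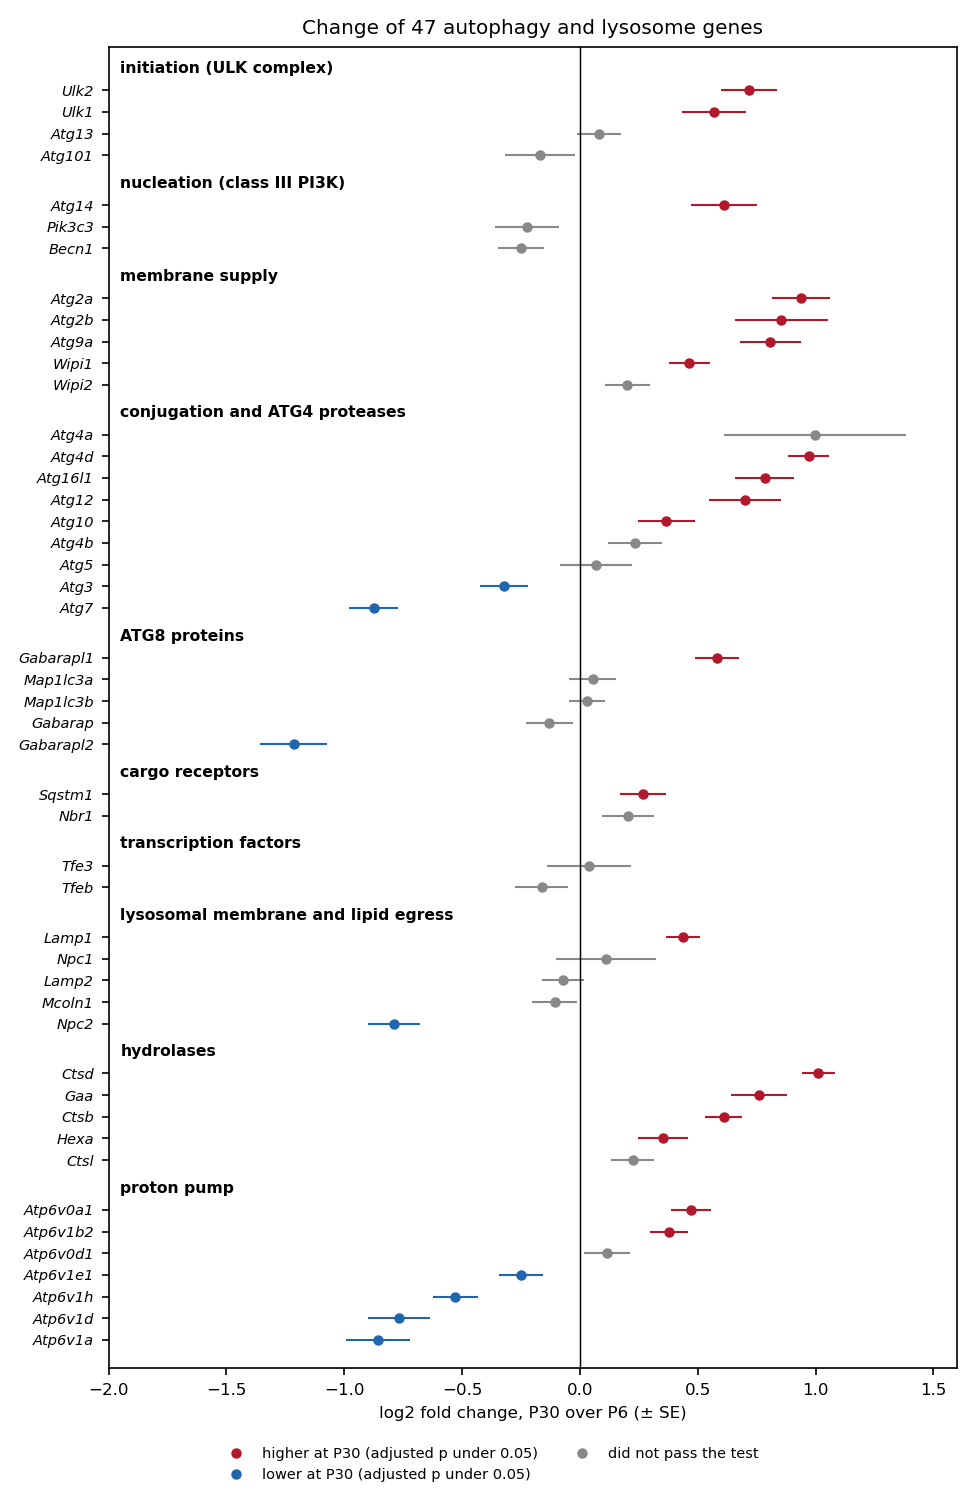
Log2 fold change of each of the 47 members, P30 over P6, with its standard error (horizontal bars), grouped by role and coloured by the outcome of the edgeR test. Membrane supply and hydrolase genes lie to the right of 0, and proton pump subunits lie on both sides, from -0.86 (Atp6v1a) to 0.47 (Atp6v0a1).

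The formation genes and the lysosomal enzymes with the pump are set side by side here, and the difference between them was not tested. Among all tested genes 26.3% were higher and 27.8% lower at P30. Of 26 formation genes 12 were higher, 3 lower and 11 did not pass the test, with a median log2 fold change of 0.30. Of 12 enzyme and pump genes 6 were higher, 4 lower and 2 did not pass, with a median of 0.29. All 4 that were lower were pump subunits: 4 of 5 hydrolases rose and none fell, whereas 2 of 7 pump subunits rose and 4 fell. The enzyme and pump genes summed to 2722 to 2790 CPM in the P6 libraries and 4073 to 4165 CPM at P30, and the formation genes to 1880 to 2005 CPM and 2293 to 2448 CPM. Both sums were higher in every P30 library; the first is dominated by Ctsd and Ctsb. With each gene weighted equally, the mean log2 CPM of the enzyme and pump genes exceeded that of the formation genes. The gap was 1.62 ± 0.05 (SD, n = 4) at P6 and 1.48 ± 0.07 (SD, n = 3) at P30. On this scale it was smaller in every P30 library (1.40 to 1.54) than in any P6 library (1.56 to 1.66). The gap pools 2 classes that moved in opposite directions. Mean log2 CPM went from 7.98 at P6 to 8.58 at P30 for the hydrolases and from 6.67 to 6.47 for the pump. For the formation genes it went from 5.60 to 5.87. The hydrolases thus moved away from the formation genes, and the pump genes moved towards them.

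Among the initiation genes both ULK kinases rose. Ulk1 and Ulk2 encode the kinases that start autophagosome formation. Ulk1 had 95.6, 124, 96.6 and 82.4 CPM in P6a to P6d and 161, 152 and 131 CPM in P30a to P30c, and Ulk2 had 95.9, 100.1, 86.2 and 82.1 CPM and then 173, 149 and 127 CPM. Neither gene overlapped between the ages, and P30c was the lowest P30 library for both. The log2 fold change was 0.57 ± 0.14 (SE) for Ulk1 (edgeR adjusted p = 0.00602) and 0.72 ± 0.12 for Ulk2 (adjusted p = 0.000745); with library totals Ulk1 no longer passed (adjusted p = 0.0537). The partners Atg13 (0.08 ± 0.09) and Atg101 (-0.17 ± 0.15) did not pass the test.

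The lipid kinase complex that marks the nascent membrane went in no common direction. Atg14, the subunit that directs the complex to autophagosome formation, had 10.5, 10.1, 13.1 and 12.7 CPM at P6 and 18.5, 17.2 and 17.5 CPM at P30, all P30 libraries above all P6 libraries. It rose by 0.61 ± 0.14 on the log2 scale (edgeR adjusted p = 0.0046). Becn1, its scaffold, had 79.6, 75.8, 80.5 and 64.6 CPM and then 63.2, 62.0 and 64.5 CPM, which did not overlap but lay close in P6d and P30c. Its log2 fold change of -0.25 ± 0.10 did not pass (adjusted p = 0.0558) and passed without P6d (0.0132), with the length trend removed (0.017) and with library totals (0.00585); 45.7% of the 50-base words of its transcript are shared with other genes, among them Cntd1 on the opposite strand, so its counts are uncertain. The catalytic subunit Pik3c3 had a log2 fold change of -0.23 ± 0.14 and did not pass, except with library totals (adjusted p = 0.0304).

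Genes that bring membrane and lipid to the growing autophagosome were mostly higher, as 4 of 5 rose and none fell. All 5 had more CPM in every P30 library than in any P6 library. Among all tested genes 26.3% were called higher, and 27.8% had every P30 library above every P6 library. ATG9A is the transmembrane protein of the seed vesicles, and ATG2A and ATG2B transfer lipid from the endoplasmic reticulum. Atg9a, the most counted of the class, had 119.8, 153, 115 and 99.5 CPM at P6 and 209, 214 and 218 CPM at P30 (log2 fold change 0.81 ± 0.13, edgeR adjusted p = 0.000659). Atg2a had 40.3, 53.7, 42.5 and 38.0 CPM and then 85.9, 84.8 and 80.7 CPM (0.94 ± 0.12, adjusted p = 0.000188). Atg2b had 33.6, 42.2, 23.3 and 25.3 CPM and then 63.5, 54.4 and 50.7 CPM (0.85 ± 0.20). In all 3 genes P6b was the highest P6 library, yet below the lowest P30 library. Of the WIPI proteins, which read the lipid mark and recruit the conjugation machinery, Wipi1 had 90.0, 94.4, 81.6 and 83.4 CPM and then 124, 124 and 113 CPM (0.46 ± 0.09, adjusted p = 0.00162). Wipi2 had 64.7, 66.8, 57.2 and 55.4 CPM and then 71.6, 71.0 and 67.7 CPM and did not pass (0.20 ± 0.10, adjusted p = 0.104), except without P6b (0.0446). For Atg9a 47.8% of the 50-base words are shared with the annotated transcript Gm29253 on the same strand.

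Of the 9 conjugation genes and ATG4 proteases 4 (44.4%) rose and 2 (22.2%) fell, against 26.3% and 27.8% of all tested genes. Atg7, the activating enzyme that both systems share, had 31.0, 33.7, 34.9 and 34.7 CPM at P6 and 19.0, 17.5 and 18.5 CPM at P30, and fell by 0.87 ± 0.10 on the log2 scale (edgeR adjusted p = 0.000112). The ages did not overlap. Atg3, the enzyme that joins ATG8 proteins to lipid, fell from 58.7 ± 5.19 to 46.9 ± 2.85 CPM (-0.32 ± 0.10, adjusted p = 0.0231). Atg16l1, which places the ATG12 conjugate on the membrane, rose from 40.5 ± 5.84 to 69.9 ± 4.32 CPM (0.78 ± 0.12), and Atg12 itself from 24.8 ± 4.74 to 40.3 ± 3.94 CPM (0.70 ± 0.15). Atg10, the enzyme that joins ATG12 to ATG5, rose by 0.37 ± 0.12 on the log2 scale (adjusted p = 0.0277), while Atg5 did not pass (0.07 ± 0.15). The call of Atg3 was lost without P30b (adjusted p = 0.0985) or P30c (0.053), and that of Atg10 with library totals (0.177) or without P6c, P30a or P30c (0.0519 to 0.0863).

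ATG4 proteases process ATG8 proteins before conjugation and release them afterwards. Atg4d had 48.3, 57.0, 50.7 and 53.9 CPM at P6 and 101, 104 and 104 CPM at P30, with the narrowest spread among the 3 P30 libraries of any ATG4 gene relative to its level. Its log2 fold change was 0.97 ± 0.09 (edgeR adjusted p = 2.13e-05), the largest called rise among the formation genes. Atg4b had 40.4, 43.1, 51.2 and 52.9 CPM and then 58.3, 53.4 and 53.8 CPM, which nearly touched, and did not pass (0.23 ± 0.12, adjusted p = 0.113). Atg4a had only 4.16, 1.33, 1.75 and 3.46 CPM and then 5.36, 5.69 and 4.21 CPM; its difference of 1.00 ± 0.39 missed the threshold (adjusted p = 0.0511) and passed under 6 of 12 alternatives. 63.6% of its 50-base words are shared with other genes, the pseudogene Atg4a-ps among them.

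The ATG8 proteins themselves, which coat the autophagosome and bind cargo receptors, summed to 899 ± 57.4 CPM (SD, n = 4) at P6 and 900.5 ± 42.5 CPM (SD, n = 3) at P30, and the calls were among their minor members. Per kilobase of transcript Map1lc3a was the most counted, with 394 CPM per kb at P6 and 409 at P30, followed by Gabarap with 139.8 and 128 and Map1lc3b with 83.8 and 85.5. Gabarapl2 and Gabarapl1 stood at 18.1 and 16.1 CPM per kb at P6 and at 7.76 and 24.1 at P30. The 3 abundant genes did not pass the test. Map1lc3a had 458, 437, 391 and 467 CPM at P6 and 507, 406 and 451 CPM at P30, Map1lc3b had 218, 201, 213 and 217 CPM and then 208, 218 and 224 CPM, and Gabarap had 190.2, 167, 179.6 and 218 CPM and then 168, 174 and 175 CPM. All 3 overlapped between the ages, and the log2 fold changes were 0.05 ± 0.10, 0.03 ± 0.08 and -0.13 ± 0.10; the sign of each changed with at least 1 other processing choice. Map1lc3a was called higher with the length trend removed (log2 fold change 0.29, adjusted p = 0.0307), and Gabarap lower with library totals (-0.31, adjusted p = 0.0157).

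The minor members moved in opposite directions. Gabarapl2 had 37.0, 27.4, 27.8 and 29.0 CPM at P6 and 13.6, 11.9 and 13.5 CPM at P30, and fell by 1.21 ± 0.14 on the log2 scale (edgeR adjusted p = 0.000103), the largest difference among all 47 members. Gabarapl1 had 28.0, 29.3, 28.4 and 31.7 CPM and then 42.1, 44.3 and 45.2 CPM, a log2 fold change of 0.58 ± 0.095 (adjusted p = 0.000692). Neither overlapped between the ages. Counts of both are uncertain to a degree: 17.0% of the 50-base words of Gabarapl2 are shared with other annotated genes such as Gm3724, and 18.6% of those of Gabarapl1 with 1700101I11Rik on the opposite strand.

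**Figure D2:**
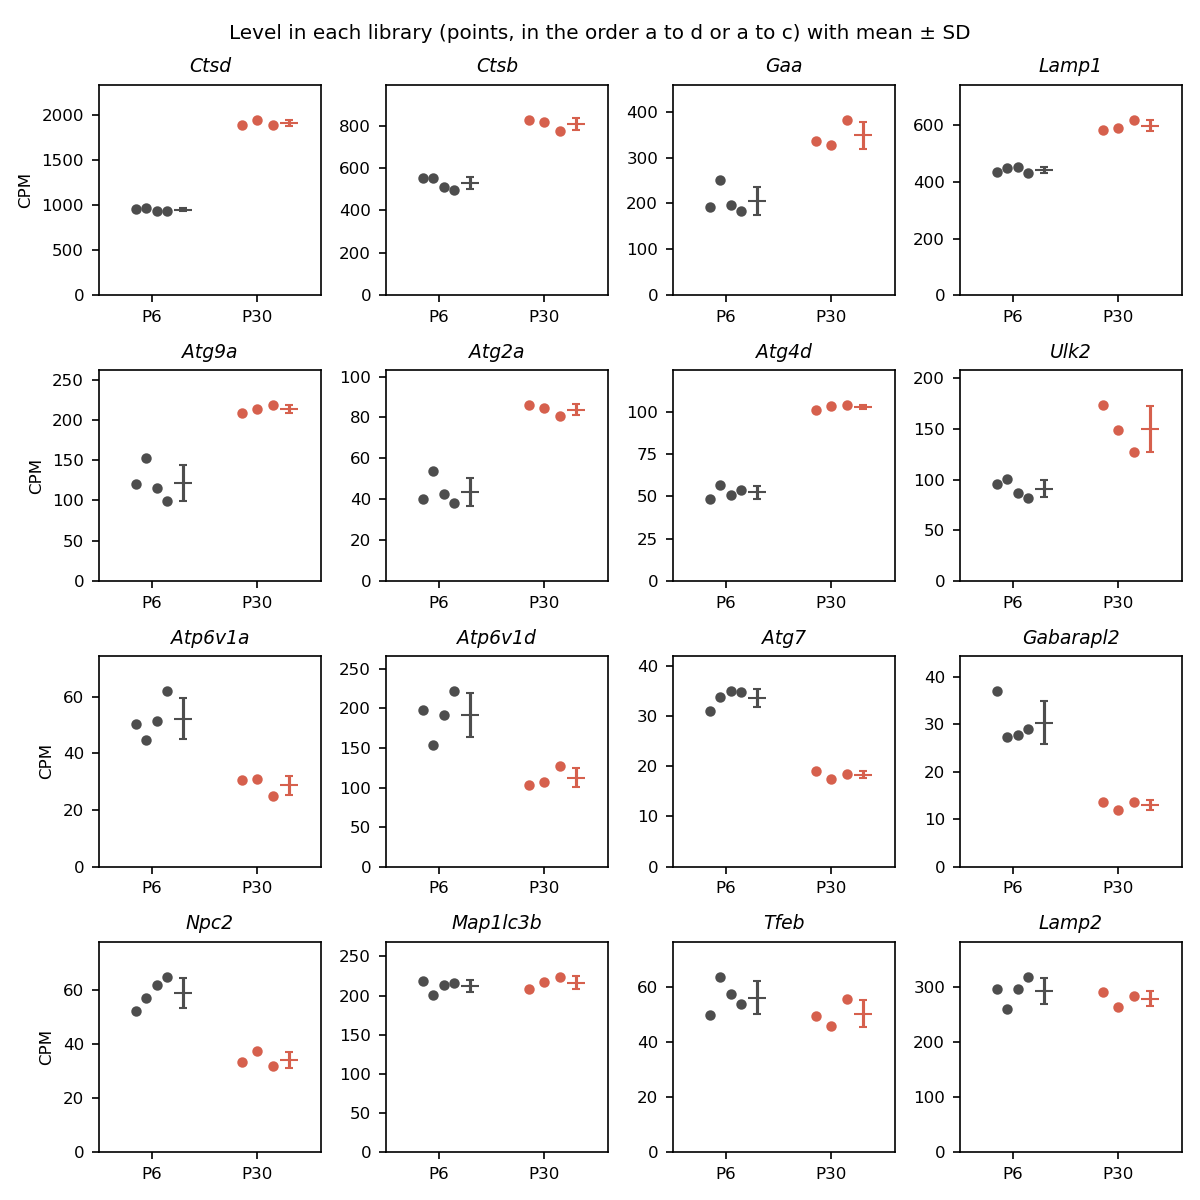
CPM of 16 members in each library (points, P6 in grey and P30 in red) with the mean and SD of each age (bars), each panel starting at 0. In the top 2 rows every P30 library lies above every P6 library, from Atp6v1a to Npc2 every P30 library lies below, and Map1lc3b, Tfeb and Lamp2 overlap.

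The cargo receptors SQSTM1 (p62) and NBR1 link ubiquitinated cargo to ATG8 proteins. Sqstm1 had 449, 476, 440.2 and 496 CPM at P6 and 594, 604 and 484 CPM at P30, so that P30c lay within the P6 range. Its rise of 0.27 ± 0.10 on the log2 scale passed narrowly (edgeR adjusted p = 0.0412) and was lost without any of P6a, P6c, P30a and P30b (adjusted p up to 0.155) and with library totals (0.476). Nbr1 had 208, 223, 170.1 and 183 CPM and then 246, 215 and 216 CPM, overlapped between the ages and did not pass (0.20 ± 0.11, adjusted p = 0.139), except without P6b (0.0438).

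Transcripts of the regulators TFEB and TFE3 gave no called difference. Tfeb had 49.8, 63.7, 57.4 and 53.9 CPM at P6 and 49.5, 45.9 and 55.6 CPM at P30 (log2 fold change -0.16 ± 0.11, edgeR adjusted p = 0.249), and Tfe3 had 15.7, 18.1, 15.5 and 10.5 CPM and then 15.1, 16.4 and 14.9 CPM (0.04 ± 0.18, adjusted p = 0.87). Both overlapped between the ages. With library totals Tfeb was lower (-0.35, adjusted p = 0.0312), and the sign of Tfe3 changed under 3 alternatives. Activity of these factors depends on phosphorylation and location, which transcripts do not show.

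In the lysosomal membrane Lamp1 rose and Lamp2 did not pass the test. The 2 genes encode the most abundant glycoproteins of that membrane. Lamp1 had 434, 448, 452 and 432 CPM at P6 and 584, 591 and 619.8 CPM at P30, a tight separation with a log2 fold change of 0.44 ± 0.07 (edgeR adjusted p = 0.000724). Lamp2 had 296, 261, 297 and 318 CPM and then 290.4, 263 and 283 CPM, within the P6 range (-0.07 ± 0.09, adjusted p = 0.529). The channel Mcoln1 (-0.11 ± 0.10) and the cholesterol transporter Npc1 (0.11 ± 0.21) did not pass either. With library totals Lamp2 (-0.25, adjusted p = 0.0214) and Mcoln1 (-0.29, adjusted p = 0.0393) were called lower. Npc2, the soluble protein that hands cholesterol to NPC1, went the other way: it had 52.4, 57.1, 61.9 and 64.9 CPM and then 33.3, 37.6 and 31.8 CPM, a log2 fold change of -0.79 ± 0.11 (adjusted p = 0.000289) with every P30 library below every P6 library.

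Of the 5 hydrolases 4 rose and none fell, and all 5 had more CPM in every P30 library than in any P6 library. The shares of all tested genes were 26.3% called higher and 27.8% with every P30 library above every P6 library. With library totals 3 of the 5 were higher, against 19.2% of all tested genes, and without P30b also 3. Ctsd encodes cathepsin D, the main aspartic protease of the lysosome, and lies on chromosome 7 (142375911 to 142388038, minus strand, GRCm38). It had 959.7, 963, 932 and 933 CPM at P6 and 1893, 1949 and 1886 CPM at P30, and was the most counted member per kilobase at both ages, with 445 and 898 CPM per kb. The spread within an age was 16.9 CPM (SD, n = 4) and 34.8 CPM (SD, n = 3), and the log2 fold change was 1.01 ± 0.07 (edgeR adjusted p = 4.51e-06), between 1.00 and 1.02 with any 1 library left out. The cysteine protease Ctsb had 553, 551, 512 and 497 CPM and then 828, 816 and 775 CPM (0.61 ± 0.08, adjusted p = 0.000165). Ctsl, another cysteine protease, had 186, 179, 189 and 192 CPM and then 193, 223 and 238 CPM; P30a barely exceeded P6d, and the difference of 0.22 ± 0.09 did not pass (adjusted p = 0.0601), though it did without P30a (0.0245), with DESeq2 size factors (0.0469) and with the length trend removed (0.0114).

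Gaa, the acid glucosidase that degrades glycogen inside lysosomes, averaged 206 ± 30.5 CPM over the 4 P6 libraries and 349 ± 29.7 CPM over the 3 at P30 (mean ± SD), and rose by 0.76 ± 0.12 on the log2 scale (edgeR adjusted p = 0.000538). Hexa, the alpha subunit of the enzyme that degrades GM2 ganglioside, rose from 54.0 ± 4.25 to 69.0 ± 7.68 CPM (0.35 ± 0.11), a call lost without P30b (adjusted p = 0.0952) or with library totals (0.23). The annotation shares 36.6% of the 50-base words of Ctsd with Gm49369, a transcript on the same strand, and 15.45% of those of Ctsb with Fdft1 on the opposite strand. Macrophages are rich in lysosomes, so values of their markers are given beside these genes. Of 9 tested macrophage markers 8 were also higher at P30 (4 of 9 without P30b), against 26.3% of all tested genes. Some of these markers had few counts at P6 and could pass the filter only through the P30 libraries. For such markers a fall could hardly be called. Lyz2, the most counted macrophage marker, went from 1.86 ± 0.655 to 8.71 ± 5.66 CPM. Cd163 and Aif1, listed markers that were not tested, were named after their values were seen. Cd163 had no count in any P6 library and 7 to 13 counts in the P30 libraries. Aif1 overlapped between the ages, with 0 to 5 counts in the younger libraries and 1 to 3 in the older. The macrophage sum was 17.2, 51.6 and 20.8 CPM in P30a to P30c, and the 5 hydrolases summed to 3316, 3393 and 3345 CPM there. A sum of markers does not measure the hydrolase RNA of these cells. The part of these cells in the rise was not tested.

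Of a further 38 lysosomal hydrolase genes, 13 (34.2%) were higher and 8 (21.1%) lower at P30, with a median log2 fold change of 0.11. For all tested genes the shares were 26.3% and 27.8%, or 19.2% and 37.1% with library totals. Psap, the precursor of the saposins that assist lipid hydrolases, rose from 721 ± 59.2 to 1497 ± 74.1 CPM (1.05 ± 0.09), and Idua, which degrades glycosaminoglycans, from 23.2 ± 2.12 to 55.1 ± 0.658 CPM (1.25 ± 0.10). Asah1, the acid ceramidase, was lower (46.6 ± 2.93 and 32.9 ± 2.10 CPM, log2 fold change -0.50 ± 0.10). With library totals the list gave 10 higher and 12 lower, and the number lower fell to 5 without P6c and 4 without P30c. Of 18 tested further lysosomal membrane genes 7 were higher and 3 lower, among them Abcb9, a peptide transporter (1.70 ± 0.15), and the tetraspanin Cd63 (-0.88 ± 0.11). Scarb2, the most counted of those that rose (0.59 ± 0.21, edgeR adjusted p = 0.0339), lost its call without any of P6a, P6b, P30a and P30b (adjusted p up to 0.134). In the mannose 6-phosphate route that sorts hydrolases to lysosomes, 1 of 6 genes was higher, Nagpa (1.11 ± 0.18), and none lower; 3 were lower with library totals.

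The proton pump split by subunit. The pump has a cytosolic V1 sector that hydrolyses ATP and a membrane V0 sector that carries protons. Among the members Atp6v1a, the catalytic subunit, had 50.6, 44.7, 51.6 and 62.0 CPM at P6 and 30.5, 30.8 and 25.0 CPM at P30, and fell by 0.86 ± 0.13 on the log2 scale (edgeR adjusted p = 0.000562). Its partner in the catalytic ring, Atp6v1b2, rose from 152 ± 7.87 to 197 ± 9.72 CPM (0.38 ± 0.08, adjusted p = 0.00331), so the 2 ring subunits moved in opposite directions with no overlap in either. The stalk subunit Atp6v1d fell from 192 ± 28.0 to 113 ± 12.5 CPM (-0.77 ± 0.13), and the regulatory subunit Atp6v1h from 57.4 ± 3.12 to 39.8 ± 2.73 CPM (-0.53 ± 0.10).

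Atp6v1e1, a stalk subunit and the pump member with the highest mean CPM over all libraries, had 217, 183, 194 and 221 CPM at P6 and 162, 172 and 179.7 CPM at P30. The ages did not overlap. Its fall of 0.25 ± 0.09 on the log2 scale passed narrowly (edgeR adjusted p = 0.0438) and was lost under 10 of 12 alternatives. In the membrane sector Atp6v0a1, which anchors the pump and lines the proton path, rose from 127 ± 8.33 to 176 ± 7.59 CPM (0.47 ± 0.08, adjusted p = 0.00113), and Atp6v0d1 did not pass (0.115 ± 0.10).

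Of the 11 tested pump genes that are not members, 3 (27.3%) were higher and 6 (54.5%) lower, against 26.3% and 27.8% of all tested genes. Dividing all tested subunits by sector, a grouping chosen after the values were seen, 8 of 9 V1 genes were lower and 1 higher, and of 7 V0 genes 3 were higher and 1 lower. The 3 V0 genes that rose were Atp6v0a1, Atp6v0a2 (31.7 ± 5.02 and 62.1 ± 2.62 CPM, log2 fold change 0.97 ± 0.13) and Tcirg1 (2.92 ± 0.393 and 6.06 ± 2.59 CPM, 1.05 ± 0.29), the tested forms of the a subunit. Without P30b 2 V0 genes were higher, and Tcirg1 had 5.41, 8.92 and 3.86 CPM in P30a to P30c. The V0 list held 10 genes, and those not tested include Atp6v0c, with 3 to 21 counts per library. Shared sequence was examined for the members only, and the multi-mapping settings of the counting are not known. Whether the counts of Atp6v0c follow its expression was not tested. Among the V1 genes Atp6v1c1 went from 107 ± 10.3 to 72.6 ± 8.23 CPM and Atp6v1g1 from 101 ± 9.86 to 55.2 ± 6.76 CPM. The accessory protein genes diverged too: Atp6ap1 rose by 0.54 ± 0.08 and Atp6ap2 fell by 0.94 ± 0.15 on the log2 scale. Tcirg1, Atp6v0c, Atp6v1g1 and Atp6ap2 were named after their values were seen. With the length trend removed, or with 1 library left out, 7 or 8 V1 genes were lower. All 24 listed pump genes summed to 1502 to 1686 CPM at P6 and 1444 to 1602 CPM at P30, which overlapped.

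**Figure D3:**
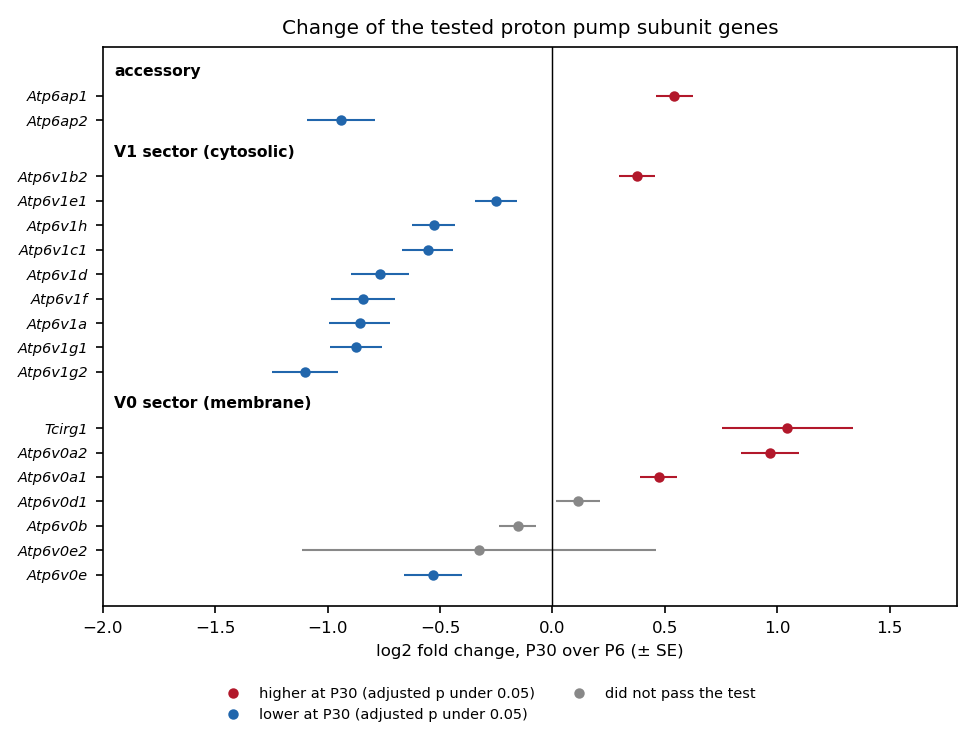
Log2 fold change, P30 over P6, with standard error for the 18 proton pump genes tested, grouped into accessory proteins, V1 sector and V0 sector. All V1 points except Atp6v1b2 lie below 0, and the 3 a-subunit genes (Tcirg1, Atp6v0a2 and Atp6v0a1) lie above 0.

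Shares within families, which do not depend on library scaling, were compared for 10 families by an exact two-sided permutation test. With 4 and 3 libraries the smallest p is 0.0286, which 5 families reached, and the Benjamini-Hochberg adjusted p over the 10 families was then 0.0571, so none passed 0.05. Atg4d made up 51.5% ± 3.45 (SD, n = 4) of the counts of Atg4a, Atg4b and Atg4d at P6 and 63.1% ± 1.47 (SD, n = 3) at P30. Gabarapl1 went from 11.9% ± 0.935 to 19.1% ± 0.269 of the 3 Gabarap genes, and Lamp1 from 60.1% ± 2.35 to 68.2% ± 1.25 of Lamp1 and Lamp2. Wipi1 went from 58.9% ± 0.833 to 63.2% ± 0.603 of its pair, and Ctsl from 26.1% ± 1.55 to 21.3% ± 2.33 of its sum with Ctsb. In these 5 families no P6 library overlapped a P30 library. The shares of Ulk1, Atg2a, Map1lc3a, Tfeb and Sqstm1 overlapped between the ages, with mean differences from -2.68 to 1.15 percentage points and exact permutation p from 0.286 to 0.943.

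**Figure D4:**
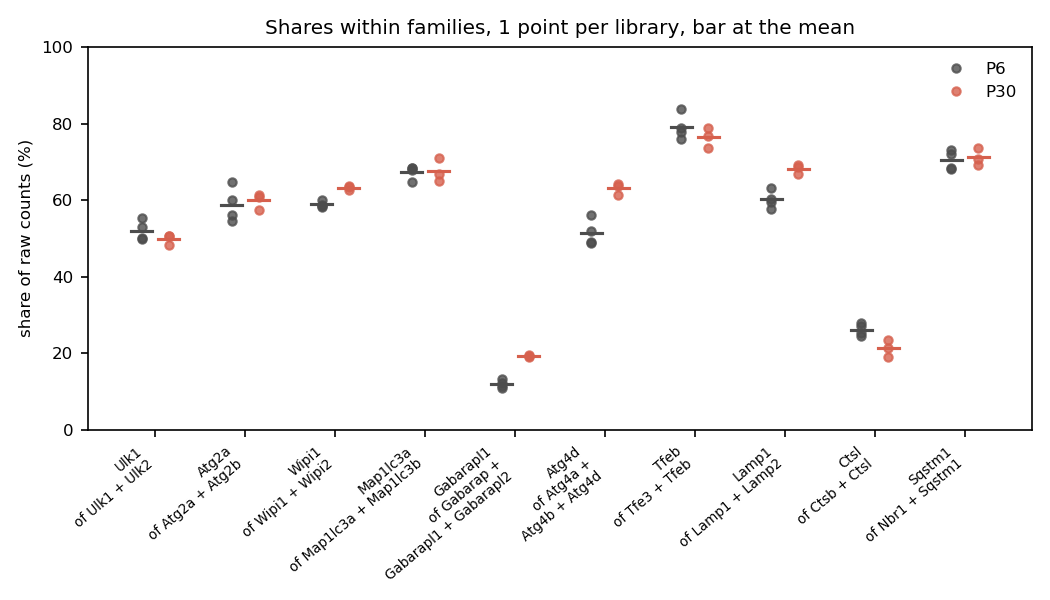
Share of raw counts (percent) of the first-named gene in its family, with 1 point per library, P6 in grey and P30 in red, and a bar at the mean. The ages are apart for Wipi1, Gabarapl1, Atg4d, Lamp1 and Ctsl and overlap for the other 5.

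Other genes of autophagy and of its control were counted from lists set beside the members. Of 22 further autophagy factors 8 (36.4%) were higher and 2 (9.09%) lower, with a median log2 fold change of 0.20. For all tested genes the shares were 26.3% and 27.8%, or 19.2% and 37.1% with library totals. Sh3glb1, a curvature protein that binds the lipid kinase complex, rose from 244 ± 33.1 to 347 ± 17.0 CPM, and Epg5, a tether for fusion with lysosomes, from 11.4 ± 1.54 to 23.8 ± 3.56 CPM, whereas Vamp8, a membrane fusion protein, fell from 69.2 ± 15.9 to 33.9 ± 3.39 CPM. With library totals 5 were higher and 3 lower. Of 17 genes of selective autophagy and mitophagy 7 were higher and 8 lower; 4 were higher with library totals, and the number lower was 4 without P30a and 5 without any of P6a, P6c, P6d and P30b. Pink1, the kinase that marks damaged mitochondria, rose from 407 ± 77.6 to 760.2 ± 56.6 CPM, and Retreg1, a receptor for degradation of the endoplasmic reticulum, fell by 1.30 ± 0.11 on the log2 scale. Stbd1, a glycogen-binding protein with an ATG8 interaction motif, had 80.7, 78.1, 192 and 180.0 CPM at P6 and 37.5, 37.5 and 11.5 CPM at P30 (log2 fold change -2.20 ± 0.46, edgeR adjusted p = 0.00307). P6c and P6d held over 2-fold more of it than P6a and P6b. Some other genes, named after their values were seen, divided the P6 libraries in the same way. The smooth muscle marker Acta2 had 915 and 919 CPM in P6a and P6b and 2075 and 1916 CPM in P6c and P6d. The immediate early gene Nr4a1 went the other way, with 421 and 475 CPM and then 63.4 and 63.5 CPM. The cause was not tested.

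Genes of mTORC1, which restrains autophagy and TFEB when nutrients are plentiful, and of its regulators were higher for 9 and lower for 6 of the 24 tested. These were 37.5% and 25.0% of the list, against 26.3% and 27.8% of all tested genes. With the length trend removed 8 were higher and 3 lower, with library totals 5 and 10, and without P30b 8 and 3. Rheb, the direct activator of mTORC1, fell from 161 ± 29.5 to 66.9 ± 8.07 CPM (log2 fold change -1.27 ± 0.15). Its inhibitors rose, Tsc1 from 20.6 ± 2.53 to 50.5 ± 3.29 CPM (1.29 ± 0.12) and Tsc2 from 166 ± 17.5 to 309 ± 27.2 CPM (0.89 ± 0.10). The core subunits Mtor (0.48 ± 0.13), Rptor (0.72 ± 0.11) and Mlst8 (0.92 ± 0.15), were also higher. Of the Rag and Ragulator genes, which bring mTORC1 to the lysosome, Rraga (-0.30 ± 0.09), Lamtor3 (-0.47 ± 0.14), Lamtor4 (-1.09 ± 0.17) and Lamtor5 (-0.41 ± 0.11) were lower, and Rragb, Rragc, Rragd, Lamtor1 and Lamtor2 did not pass. The subunit, Rag and Ragulator genes were named after their values were seen. Their calls were not followed gene by gene under the alternatives. The number lower in the list fell from 6 to 3 under 2 of these, so some of these calls may not hold.

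In the authors' deposited table, a DESeq2 comparison of the ages, 21 members were higher and 7 lower at an adjusted p under 0.05. The sign was the same as in the edgeR fit for 47 of 47. DESeq2 run here on the deposited counts also gave 21 and 7. Both results rest on the same libraries, so the match is not an independent check.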

How the data were processed

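RNA from sorted cardiomyocytes was sequenced in 4 libraries at P6 and 3 at P30. The deposited table holds raw counts per gene, which the authors made with CASAVA 1.8, STAR 2.5.3a (build mm10) and the featureCounts program of Subread 1.5.2, per the submitters' processing notes; the sources used here do not give strand, annotation or multi-mapping settings. The authors also deposited a DESeq2 comparison: baseMean is a signal averaged over libraries as scaled counts, the fold change and its error are log2 values, the Wald statistic is a score, and the p-value columns are theirs, all per the file headers. The count columns carry letters that no title gives, so they were grouped by age only.

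The counts entered edgeR 4.0.16 under R 4.3.3 (filterByExpr, TMM, quasi-likelihood fit of age), with Benjamini-Hochberg adjustment over 12561 genes and a threshold of 0.05. The SE is the log2 fold change divided by the square root of the F statistic. The test was tried on simulated counts, where the share of false calls was above the nominal threshold. Coordinates, lengths and shared 50-base words came from GENCODE M21 (GRCm38), using for each gene 1 coding transcript (APPRIS principal, best supported, longest). Of 23337 genes 22873 matched it. Family shares used raw counts and an exact permutation test over the libraries. Alternatives were DESeq2 1.42.0, its size factors, library totals, no filter, removal of a transcript length trend, and leaving out each library. Named were all members; values in every library are given for family genes, and per class for the largest called change and the most counted gene. In other lists the most counted gene called in each direction and the largest called change at 10 CPM or more were named; other names are said to be chosen later. The members and lists were chosen with earlier results of these data known.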

Additional observations from a re-analysis of the deposited data

Results flagged for a closer look

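Of 57 sets of 4 P6 values examined (the CPM of each member and the 10 family shares), 3 held a library that lay far from the other 3 by Dixon's criterion (the gap to the nearest over the whole range), where chance flags about 5%. Gabarapl2 had 37.0 CPM in P6a against 27.4 to 29.0 CPM in the others; all P30 libraries were between 11.9 and 13.6 CPM. Gaa had 251 CPM in P6b against 184 to 196 CPM, still below the lowest P30 library (328 CPM). Hexa had 47.7 CPM in P6a against 55.9 to 56.4 CPM. The groups of 3 P30 libraries were not examined in this way.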

How the results depend on the processing

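No paired analysis was possible because the count columns carry letters that the labels tie to no replicate number. Of 28 called members 22 kept their call under all 12 alternatives and 6 lost it under at least 1 (Ulk1, Atg3, Atg10, Sqstm1, Hexa and Atp6v1e1). With 1 library left out, 18 to 22 members were higher and 6 to 8 lower. With library totals 14 members were lower in place of 8, and 6 formation genes in place of 3; this choice moves the median of all genes by more than 0.1 on the log2 scale, and the cause of the other changes was not tested. No called member changed sign, but 9 that did not pass the test did. With library totals the log2 fold change was -0.10 for Atg13, -0.11 for Atg5, -0.13 for Map1lc3a, -0.15 for Map1lc3b, -0.15 for Tfe3, -0.074 for Npc1 and -0.066 for Atp6v0d1. With the length trend removed it was 0.012 for Atg101 and 0.04 for Gabarap. Leaving out 1 library gave -0.056 to 0.13 for Atg5, -0.03 to 0.13 for Map1lc3a, -0.10 to 0.14 for Tfe3 and -0.027 to 0.26 for Npc1. Family shares computed per kilobase gave no adjusted p under 0.05 either, and with 1 library left out the test cannot reach 0.05. The grouping of pump subunits by sector was chosen after seeing the data. Depth limits Atg4a most, at 1.33 to 5.69 CPM.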
